A study of Mus musculus with 2 samples.

Results

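Levels of 7 redox genes were followed in colon CD8 T cells: the thiol system genes Glrx, Txn1, Txnip, Prdx1 and Prdx5, and the NADPH oxidase chains Cyba and Ncf1. The 7 were taken by name, having been chosen with earlier results of these data in view, and all 7 were among the 12798 genes of the deposited table of UMI counts. A UMI is a barcode that marks 1 captured RNA molecule. The values that chose the set were the differences between the conditions over all cells, so those differences are a description here and carry no test.

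The cells were colon lamina propria T cells annotated as CD8, from Rag1 KO hosts with transfer colitis. Every host received splenic wildtype naive CD4+CD45RBhighCD25- T cells together with splenic CD8 T cells, and the CD8 donors were either Bcl6fl/flCd8aCre or Bcl6fl/fl mice. Mice were 8 to 12 weeks old at transfer and cells were taken 6 to 10 weeks after it. The 4 hashtags labelled Crep and the 4 labelled Cren were read as Cre-positive and Cre-negative donors, a reading that no source used here spells out. In the Cre-positive design, Cd8a sequences drive Cre, and all hosts lack their own T and B cells.

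All 8 hashtags came from 1 pooled library of 8562 cells, 4405 Cren and 4157 Crep, with 2635241 to 4201265 UMIs per hashtag. No source used here says that a hashtag is a separate mouse, so p-values measure the spread between hashtags, which may be technical. Bcl6 itself stood at 15.45 to 20.45 CPM (counts scaled to a common library total) in the Cren hashtags and at 24.29 to 32.4 CPM in the Crep hashtags, all 4 Crep above all 4 Cren. The kit reads the 5' end of each RNA and the deleted segment is not given in the sources used here, so this value does not check the labels. Median mitochondrial shares were 0.67 to 0.805% in Cren and 0.615 to 0.65% in Crep hashtags, groups that did not overlap, and the part of that gap in the results below was not tested. CD8 T cell markers were present in every hashtag, with 4016 to 5110 CPM over 5 genes. Of the B cell list Cd79b was in the table, with 292 UMIs in 3.11% of cells, and Cd79a and Ms4a1 were not. Of the epithelial and stromal list Pecam1 (280 UMIs) and Epcam (55 UMIs) were in it, and Krt8, Krt20 and Col1a1 were not.

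Cells hold reactive oxygen in check with enzymes that pass electrons from NADPH to thiols. Glutaredoxin-1, the product of Glrx, removes glutathione from protein cysteines, thioredoxin (Txn1) reduces protein disulfides, and peroxiredoxins (Prdx1, Prdx5) destroy peroxides. Txnip binds thioredoxin and holds it back, and it also lowers glucose uptake. Cyba encodes p22phox, the membrane partner chain of NADPH oxidases, and Ncf1 encodes p47phox, the cytosolic organizer that switches the phagocyte oxidase on. In T cells both arms are studied as modulators of receptor signalling, and in the colon the oxidase is best known from phagocytes.

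The stretches around the start sites of Glrx, Cyba, Ncf1 and Prdx1 are shown because the first 3 carry the largest differences within clusters described below, and because Ncf1 and Prdx1 held the only motif matches. Each window runs from 250 bases before to 50 bases after the start, 5′ to 3′ on the gene's strand, from RefSeq on GRCm38.p6, and capitals mark a motif match. They lie at chr13:75839635-75839934 (plus strand) for Glrx, chr8:122432891-122433190 (minus) for Cyba, chr5:134229576-134229875 (minus) for Ncf1 and chr4:116685349-116685648 (plus) for Prdx1.
Glrx: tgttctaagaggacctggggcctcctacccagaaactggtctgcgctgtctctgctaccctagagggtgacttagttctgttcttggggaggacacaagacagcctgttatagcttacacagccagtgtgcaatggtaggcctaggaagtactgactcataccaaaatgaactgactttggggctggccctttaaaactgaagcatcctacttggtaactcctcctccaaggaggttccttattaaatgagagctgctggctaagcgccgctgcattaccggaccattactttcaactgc
Cyba: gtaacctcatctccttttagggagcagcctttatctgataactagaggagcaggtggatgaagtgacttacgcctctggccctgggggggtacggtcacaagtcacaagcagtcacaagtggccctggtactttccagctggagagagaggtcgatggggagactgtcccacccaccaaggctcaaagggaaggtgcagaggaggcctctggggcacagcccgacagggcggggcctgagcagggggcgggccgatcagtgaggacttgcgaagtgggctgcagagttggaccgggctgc
Ncf1: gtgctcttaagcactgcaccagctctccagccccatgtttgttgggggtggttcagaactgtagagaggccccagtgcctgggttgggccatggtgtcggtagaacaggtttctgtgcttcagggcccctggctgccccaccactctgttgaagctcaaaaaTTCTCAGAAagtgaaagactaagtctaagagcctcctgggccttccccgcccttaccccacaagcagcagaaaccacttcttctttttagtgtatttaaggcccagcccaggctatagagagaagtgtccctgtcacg
Prdx1: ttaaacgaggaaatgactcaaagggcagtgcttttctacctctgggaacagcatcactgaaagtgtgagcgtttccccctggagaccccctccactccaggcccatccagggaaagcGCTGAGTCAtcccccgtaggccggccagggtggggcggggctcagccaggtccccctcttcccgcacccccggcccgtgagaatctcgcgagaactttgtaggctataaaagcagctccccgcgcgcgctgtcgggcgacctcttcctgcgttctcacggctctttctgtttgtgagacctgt

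The same motifs were searched on both strands in the windows of all 7 genes, each of which had a RefSeq entry. The antioxidant response element core TGACNNNGC, the element bound by NRF2, was found in Prdx1 alone, where the other strand reads TGACTCAGC from 133 bases before the start, and 12.39% of 32851 windows held it. These letters also contain the AP-1 element TGACTCA, which was not among the motifs searched. The Glrx window shown above holds TGACTCA too. The spaced palindrome TTCNNNGAA, known from STAT factors, were found in Ncf1 alone, as TTCTCAGAA beginning 88 bases before the start, against 8.298% of windows. The E-box CACGTG (7.15% of windows) and the BCL6 motif TTCCTNGAA (1.589%), which is a special case of TTCNNNGAA, were in none of the 7. A match describes letters and is not evidence of binding.

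Glrx lies on chromosome 13 (75839868 to 75850154, plus strand, GRCm38). Summed over all cells of a hashtag and scaled by TMM, it stood at 153.9, 152.6, 195.7 and 122.6 CPM in Cren hashtags 1 to 4 and at 257.2, 323.4, 266.4 and 231.4 CPM in Crep hashtags 1 to 4. Every Crep hashtag was above every Cren hashtag. The means were 156.2 ± 30.04 and 269.6 ± 38.81 CPM (SD, n = 4 each), a difference of 0.79 on the log2 scale (SE 0.14) that rested on 2098 and 3327 UMIs. In sums over cells, fewer cells that carry a transcript and less RNA per cell cannot be told apart.

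The share of cells with a Glrx UMI moved the same way. After each cell was thinned to 2000 UMIs, which left out 937 Cren and 986 Crep cells, 24.7% ± 4.33 of Cren cells and 39.9% ± 3.07 of Crep cells (SD, n = 4 hashtags each) held one. Without thinning the shares were 32.7% and 47.7%. No cell type known to lack these genes was annotated, so no share from free RNA could be set beside them.

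Cyba lies on chromosome 8 (122424776 to 122432930, minus strand) and was the most abundant of the 7 genes by UMIs, with 23531. Its levels were 750, 770.2, 849.3 and 609 CPM in Cren hashtags 1 to 4 and 1103, 1187, 1053 and 1077 CPM in Crep hashtags 1 to 4. The groups did not overlap, and the lowest Crep hashtag exceeded the highest Cren hashtag. The means were 744.6 ± 100.1 and 1105 ± 58.36 CPM (SD, n = 4 each), a difference of 0.57 on the log2 scale (SE 0.09). Among thinned cells, 74.55% of Cren and 87.3% of Crep cells held a Cyba UMI. The summed level of 5 cytotoxic markers also separated the groups, with 3529 to 7948 CPM in Cren and 9346 to 13340 CPM in Crep hashtags, and its part in the Cyba difference was not tested beyond the within-cluster values below. Of the 5 cytotoxic markers, 1 passed between conditions (edgeR), against 0.611% of all genes tested. Of the other marker lists, 1 of 2 CD4 T cell genes tested passed. Their summed level was 3.41 to 10.71 CPM in Cren and 7.97 to 15.82 CPM in Crep hashtags. Of 5 exhausted markers, 1 passed too, with 415.4 to 515 and 280.5 to 443.2 CPM in sum.

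Ncf1, the other oxidase chain of the set, lies on chromosome 5 (134220053 to 134229625, minus strand) and was sparse, with 892 UMIs in all. It stood at 22.59, 42.58, 33.33 and 31.43 CPM in Cren hashtags and at 44.87, 49.69, 42.85 and 11.02 CPM in Crep hashtags 1 to 4. Crep hashtags 1, 2 and 3 were thus above every Cren hashtag, and Crep hashtag 4 was below all of them. The means were 32.48 ± 8.199 and 37.11 ± 17.63 CPM (SD, n = 4 each), with a log2 difference of 0.22 (SE 0.43). Without Crep hashtag 4 the log2 difference was 0.51 (SE 0.17).

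Crep hashtag 4 also differed in its mix of cells. Fine cluster 7 of the deposited annotation, in which the cytotoxic genes Gzma, Gzmb, Prf1 and Klrd1 were raised, took 36.62% of its cells, and this hashtag gave 64.7% of the 592 cells of that cluster. Ncf1 had 0 UMIs in those 383 cells, which allows a share of cells with a UMI of up to 0.783% and a level of up to 2.95 CPM (3 counts, counting error only). With cluster 7 left out, Crep hashtag 4 stood at 17.91 in place of 11.0 CPM (both on the plain total) and was still below the other 3, and the log2 difference was 0.39 (SE 0.32).

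The thioredoxin pair overlapped between the groups. Thioredoxin itself, Txn1 (chromosome 4, 57943373 to 57956411, minus strand), stood at 436.1, 441.7, 495.7 and 433.4 CPM in Cren hashtags and at 466.3, 592.2, 464.2 and 486 CPM in Crep hashtags. The groups overlapped through Cren hashtag 3, and the log2 difference was 0.15 (SE 0.09). Its inhibitor Txnip (chromosome 3, 96557957 to 96561883, plus strand) stood at 360, 305.5, 329.1 and 402.8 CPM in Cren hashtags and at 391.2, 368.7, 402.1 and 605.4 CPM in Crep hashtags. Crep hashtag 4 was far above the rest, and the log2 difference of 0.34 (SE 0.16) was 0.15 without it.

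The peroxiredoxins were measured next to these. Prdx1 (chromosome 4, 116685544 to 116700822, plus strand) was at 330.6 ± 20.92 CPM in Cren and 333.5 ± 27.65 CPM in Crep hashtags (SD, n = 4 each), with a log2 difference of 0.01 (SE 0.08). Prdx5 (chromosome 19, 6906697 to 6910106, minus strand) was at 223.6 ± 23.57 and 250.8 ± 25.29 CPM, with a log2 difference of 0.17 (SE 0.09). Both pairs of groups overlapped.

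All 7 genes had a higher fitted level in Crep, with a median log2 difference of 0.22 against -0.00059 over the 9653 genes tested. Of all genes tested, 0.611% (59) passed a Benjamini-Hochberg adjusted p of 0.05 in edgeR's quasi-likelihood test, and 2 of the 7, Glrx and Cyba, were among them. Because the set was chosen from this contrast, nothing is read from the common sign, the median or that count. Its size also moved with single hashtags: it was 0 without Cren hashtag 1 or without Crep hashtag 2, and 1 without cluster 7 (Cyba) or with equal weight given to the 5 clusters that had 20 or more cells in every hashtag, 0, 1, 2, 3 and 6, which also leaves out all others (Glrx).

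**Figure D1:**
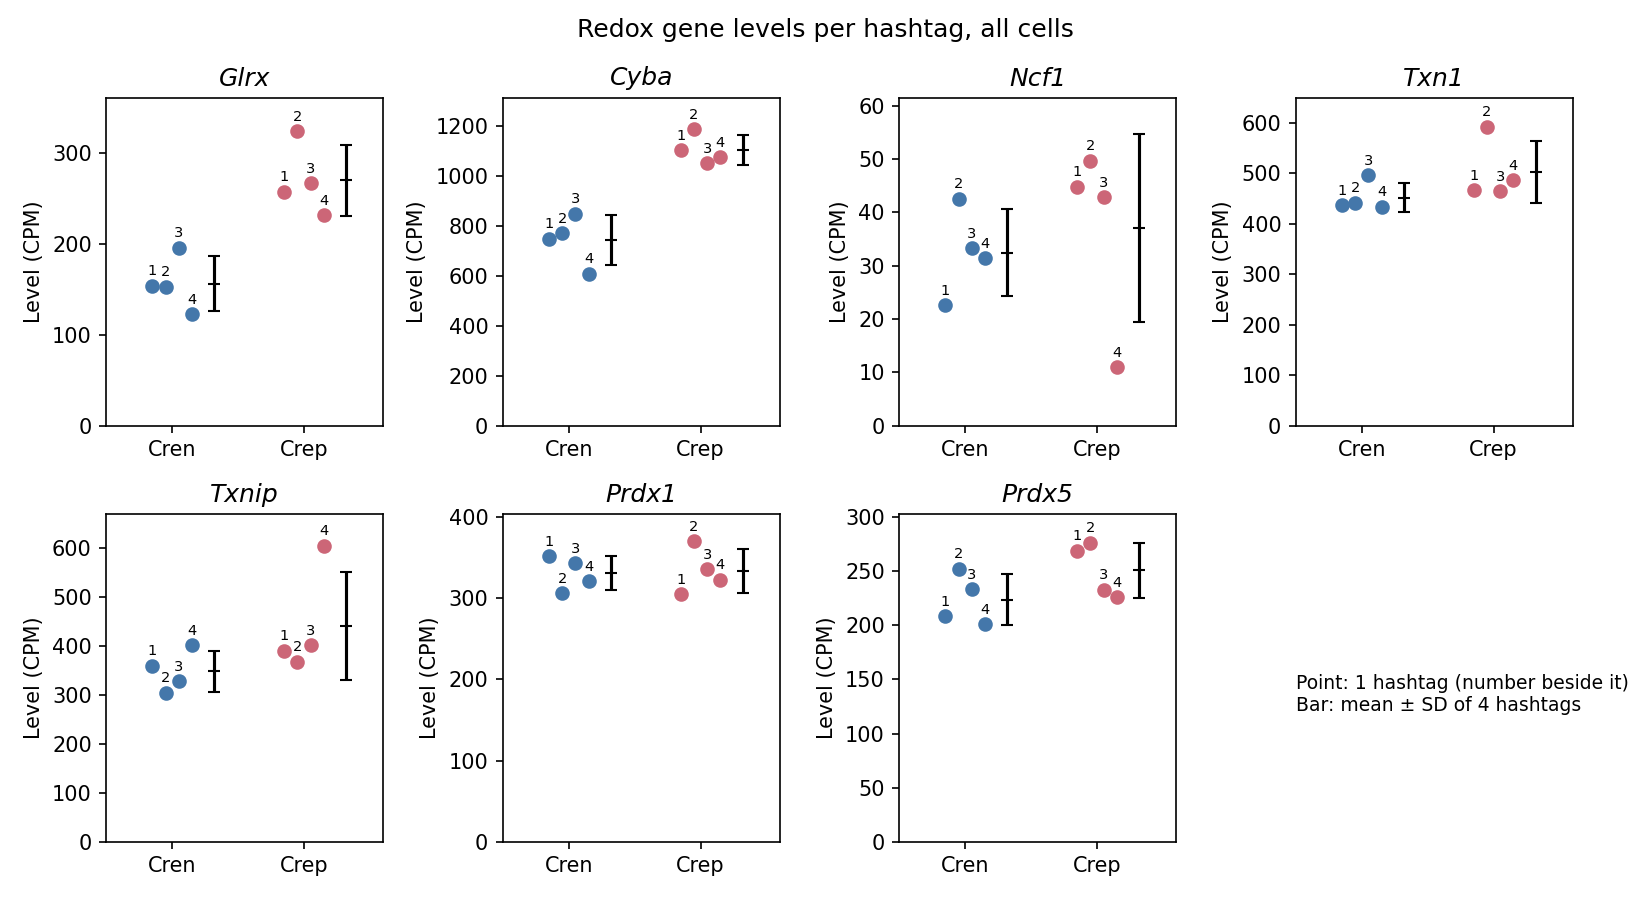
Levels of the 7 genes in each hashtag in TMM-scaled CPM, 1 panel per gene, with points for hashtags and marks for the group mean and SD. All 4 Crep hashtags were above all 4 Cren hashtags for Glrx and Cyba, and Crep hashtag 4 was lowest for Ncf1 (11.02 CPM) and highest for Txnip (605.4 CPM).

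The annotation splits the cells into 12 fine clusters, and the conditions were compared inside 6 of them. A hashtag entered with 20 or more cells, and a cluster with 3 or more such hashtags per condition, which left clusters 0, 1, 2, 3, 5 and 6. The same cells and hashtags enter as in the comparison that chose the set, so the values describe where the difference sits and support nothing. The share of all genes whose groups do not overlap was not computed, over all cells or within clusters. No separation of groups given here is therefore read as unusual.

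Among all genes tested, 0.98% passed the same threshold in cluster 0, 0.173% in cluster 1, 0.28% in cluster 2, 0% in cluster 3, 1.19% in cluster 5 and 0.0269% in cluster 6. Glrx was among them in clusters 0, 1 and 2 and Cyba in clusters 0 and 5. The cluster 5 comparison held 4 Cren and 3 Crep hashtags.

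Glrx had a higher Crep mean in 6 of 6 clusters, and in 5 of them all Crep hashtags were above all Cren hashtags. In cluster 0, where Itgae, Itga1 and Cxcr6 were raised, it stood at 249.6, 176.9, 208.9 and 183.2 CPM in Cren hashtags and at 345.5, 373, 407.7 and 291.5 CPM in Crep hashtags. In cluster 2 the Cren hashtags held 113 to 141.4 CPM and the Crep hashtags 235 to 437.6 CPM, the widest log2 difference at 1.14 (SE 0.17). It was narrowest in cluster 6, at 0.49 (SE 0.17). The separation was therefore present in clusters with different markers, among them cluster 1 with raised Tcf7 and Slamf6, at 0.79 (SE 0.15). Of 4 gamma-delta T cell genes, Tcrg-C2 and Tcrg-C4 were raised in clusters 0 and 2, and Tcrg-C1 in cluster 2. Their summed level was 70.45 to 165.5 CPM in Cren and 47.43 to 129.9 CPM in Crep hashtags, with 0 of 3 tested genes passing (edgeR). The part of such cells in the Glrx levels was not tested.

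Cyba differences were smaller inside clusters than over all cells, except in cluster 5. They were 0.46 (SE 0.10) in cluster 0, 0.33 (SE 0.11) in cluster 1, 0.43 (SE 0.12) in cluster 2, 0.27 (SE 0.12) in cluster 3, 0.61 (SE 0.12) in cluster 5 and 0.30 (SE 0.11) in cluster 6. With equal weight on clusters 0, 1, 2, 3 and 6 and all others left out, cluster 5 among them, the value was 0.35, against 0.57 over all cells. The groups did not overlap in 4 of the 6 clusters.

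Ncf1 estimates had both signs. In cluster 0 the Cren hashtags stood at 32.91, 44.64, 33.95 and 31.54 CPM and the Crep hashtags at 67.41, 67.93, 53.36 and 48.58 CPM, so that Crep hashtag 4 no longer lay below the Cren range. The log2 differences were 0.78 (SE 0.22) in cluster 0, 1.06 (SE 0.25) in cluster 2 and 1.07 (SE 0.32) in cluster 5, and in these 3 clusters the groups did not overlap. It was -0.44 (SE 0.51) in cluster 1 and 0.07 (SE 0.32) in cluster 3. These counts are small: 7 to 55 UMIs per hashtag lie behind each Crep value of cluster 0.

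**Figure D2:**
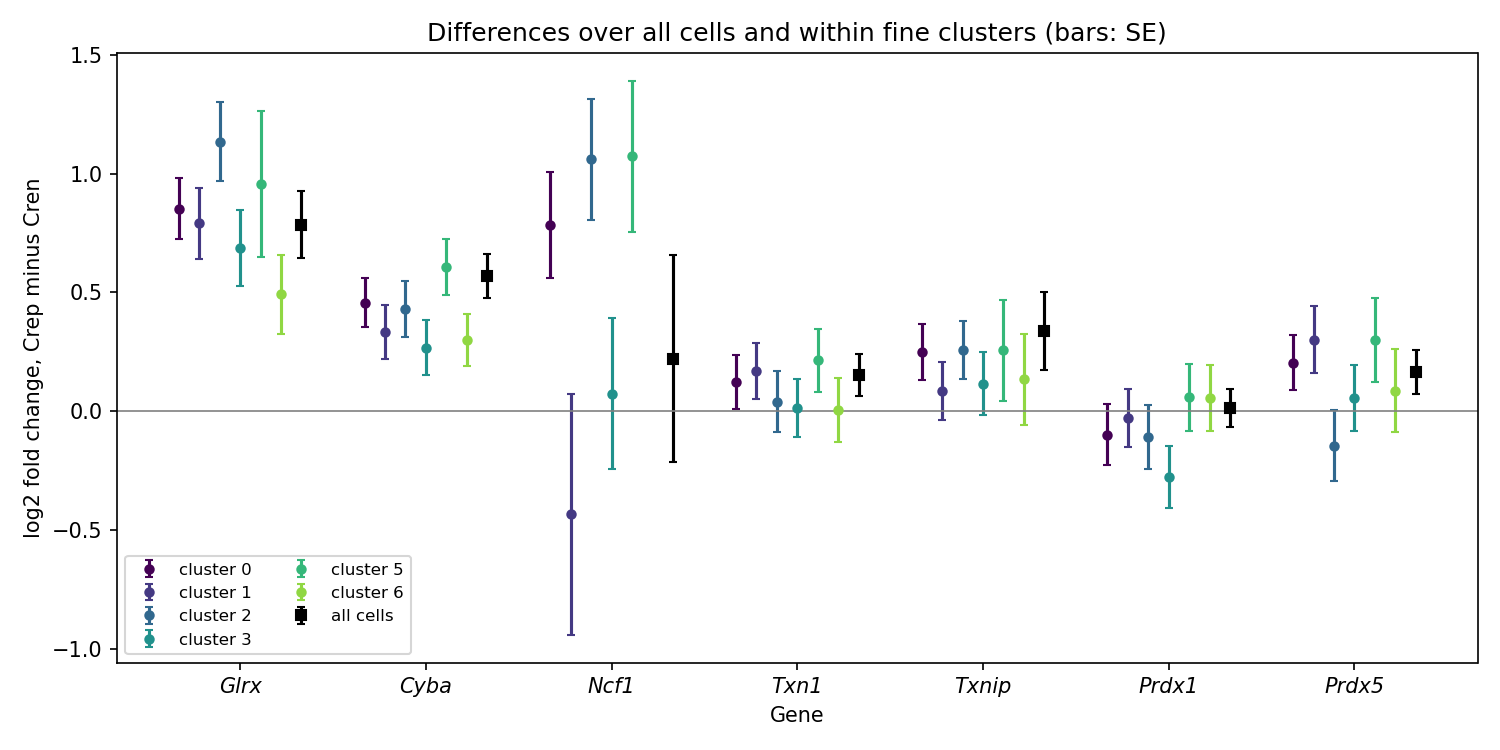
Log2 difference between Crep and Cren for each of the 7 genes inside 6 fine clusters, with bars for 1 SE. Glrx and Cyba lay above 0 in each cluster, from 0.49 to 1.14 and from 0.27 to 0.61, while Prdx1 spread around 0 and Ncf1 was not fitted in cluster 6.

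Whether the condition difference itself changed between clusters 0 and 1 was tested with an interaction term in a fit that kept the hashtag as a block. Of 6080 genes, 0.132% (8) passed an adjusted p of 0.05 in edgeR, and none of the 7 was among them. For Glrx the log2 difference in cluster 1 minus that in cluster 0 was -0.02 (SE 0.18, adjusted p = 0.999), and for Cyba it was -0.11 (SE 0.10, adjusted p = 0.946). For Ncf1 it was -1.24 (SE 0.45), with an adjusted p of 0.569 in edgeR and an unadjusted p of 0.00774.

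Levels also differed among clusters within a condition. In Crep hashtags Glrx was highest in cluster 0 at 354.4 ± 49.08 CPM (SD, n = 4), then in cluster 7 at 341.6 ± 69.43 CPM, and lowest in cluster 4 at 192.2 ± 79.94 CPM. No step between neighbours in the order of 8 clusters exceeded the larger SD. In Cren hashtags cluster 0 also led, at 204.7 ± 32.99 CPM.

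Among Crep hashtags Cyba was highest in clusters 7 and 4. Cluster 7 stood at 1362 ± 203.9 CPM and cluster 4, with raised Gzma, Gzmb and Prf1, at 1273 ± 124.7 CPM. The step from cluster 4 down to cluster 3 exceeded the larger SD, and cluster 2 was lowest at 815.6 ± 61.36 CPM. Cluster 6, with raised Gzma but not Gzmb or Prf1, was at 1015 ± 34.59 CPM. Cluster 7 held 570 of its 592 cells in Crep, so no Cren level could be set beside it.

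Ncf1 spanned the widest range of the 7 genes in Crep but not in Cren. In Crep hashtags it stood at 84.57 ± 15.93 CPM in cluster 2, 65.79 ± 0.795 in cluster 5 and 59.32 ± 9.838 in cluster 0. It was at 18.49 ± 14.54 in cluster 1 and 7.12 ± 5.62 in cluster 7, an 11.9-fold span from the highest to the lowest. The steps from cluster 2 to 5 and from cluster 0 to 6 exceeded the larger SD. The lowest value, in cluster 7, rested on 0 to 2 UMIs per hashtag. The value of cluster 1 rested on 1 to 12 UMIs per hashtag, and that of cluster 5 on 7 to 24 UMIs in each of 3 hashtags. Over the 6 clusters ordered in both conditions, which leave cluster 7 out, the span of Ncf1 was 4.57-fold in Crep and 1.27-fold in Cren.

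Txnip in Cren hashtags was highest in cluster 1, at 422.8 ± 65.22 CPM, a step above the next cluster that exceeded the larger SD. In Crep hashtags clusters 4 and 7 led, at 510.8 ± 162.9 and 505.7 ± 72.42 CPM, and Crep hashtag 4 was highest in both, at 748.9 and 613.1 CPM. Prdx5 was highest in cluster 0 in both conditions, at 286.4 CPM in Cren and 326.7 CPM in Crep. Txn1 was highest in cluster 3 in Cren (557.3 CPM) and in cluster 7 in Crep (589.4 CPM).

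Clusters 9, 10 and 11 had too few cells per hashtag and are given as pooled levels with exact Poisson 95% intervals, which cover counting error only. Cluster 11, with raised Pdcd1, Havcr2 and Lag3, had Glrx at 62.52 CPM (38.19 to 96.56) and Txnip at 87.53 CPM (58.17 to 126.5), but Prdx1 at 506.4 CPM (431.5 to 590.7). Cluster 10, of which 97.32% came from Cren hashtag 3, had Txn1 at 727.5 CPM (643.1 to 819.8). Cluster 9 had Ncf1 at 74.89 CPM (39.88 to 128.1), on 13 UMIs in 119 cells, and Cyba at 460.9 CPM (365.4 to 573.6). Its cells were shallow, with a median of 1007 UMIs per cell against 2367 to 4081 in the other clusters.

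**Figure D3:**
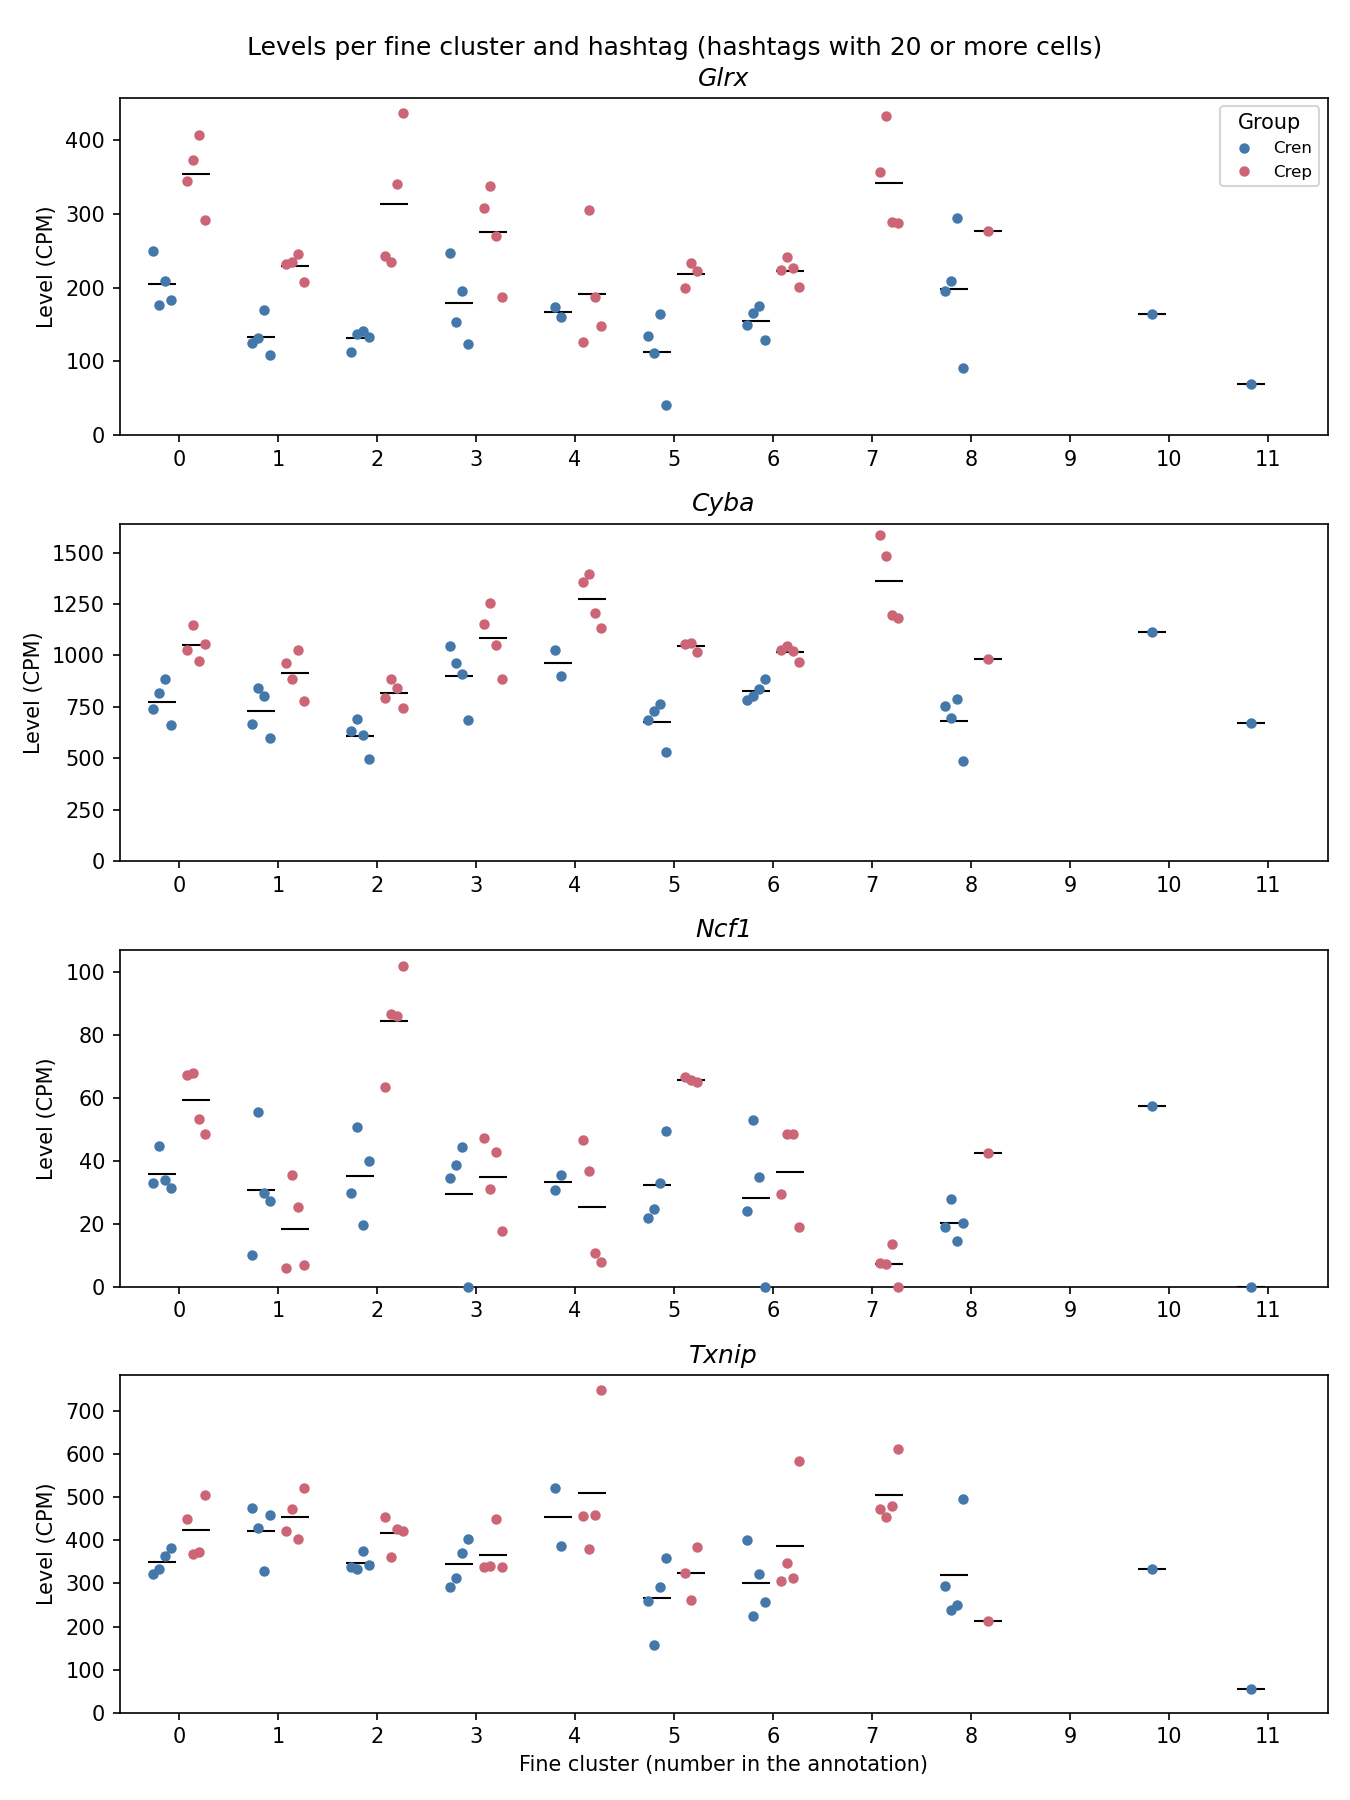
Levels of Glrx, Cyba, Ncf1 and Txnip in CPM by fine cluster, with a point for each hashtag of at least 20 cells. Ncf1 was near 0 in cluster 7 (7.12 CPM in Crep) and highest in cluster 2 in Crep (84.57 CPM), while Cyba in Crep was highest in clusters 7 and 4.

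Cyba and Ncf1 are also known from phagocytes, whose markers had these values. Of 11 myeloid markers 10 were in the table, and their summed level was 206.9 to 275.3 CPM in Cren and 172 to 250.5 CPM in Crep hashtags, with 0 of 6 tested genes passing the test between conditions (edgeR). Cd74 with 2824 UMIs and Lyz2 with 1538 gave most of it, and Csf1r had 31, Itgam 38, S100a8 26 and S100a9 30. By cluster Lyz2 ran from 34.39 to 81.13 CPM and stood at 80.87 CPM in cluster 7, where Ncf1 was at 4.1 CPM over both conditions. The summed myeloid level was 272.7 CPM in cluster 2, 261.1 in cluster 5 and 243.9 in cluster 0, where Ncf1 was at 52.2, 41.04 and 49.04 CPM over both conditions. It was 183.3 to 202.6 CPM in clusters 1, 3, 4, 6 and 8, where Ncf1 was at 19.96 to 37.63 CPM, and 244.4 CPM in cluster 7. Among clusters 0 to 8 the summed level was thus higher in the 3 with the most Ncf1 and also in cluster 7, with the least. Of the small clusters, 11 had the highest summed level, 509.6 CPM, with Ncf1 at 9.38 CPM. Cluster 10 had 219.1 CPM with Ncf1 at 56.79 CPM, and cluster 9 had 293.8 CPM with Ncf1 at 74.89 CPM. Cd74 was raised in clusters 2, 5 and 11, and the part of these genes in the Cyba and Ncf1 levels was not tested.

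The genes whose levels followed each gene most closely across the 12 clusters were ranked by Pearson's r of log2(CPM + 1) among 2838 genes of at least 50 CPM (2839 for Ncf1). All points share 1 library and differ in depth, so the values are descriptive. For Glrx they were Crot (0.94), Pglyrp2 (0.93), Gm29243 (0.92) and Commd7 (0.91). For Cyba they were Ywhab (0.95), Txndc17 (0.94), Eno1 (0.94) and Jpt1 (0.93). Ncf1 tracked Il18r1 (0.85), a chain of the IL-18 receptor, Map4k2 (0.84), Tcf7 (0.83) and Elovl5 (0.82), and Txnip tracked St3gal6 (0.97), Ebpl (0.96), Fam105a (0.93) and Mthfsl (0.92). Within the set r was 0.78 for Glrx with Txnip, 0.22 with Cyba and 0.06 with Ncf1. Cluster 11, the smallest, was far the lowest for both Glrx (62.52 CPM) and Txnip (87.53 CPM). The next lowest clusters stood at 151.1 CPM for Glrx and 265.6 CPM for Txnip. Correlations without cluster 11 were not computed, so the 0.78 may rest on it. Cyba went with Txn1 (0.82) and against Ncf1 (-0.52).

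A further 67 genes of the redox system were listed by role, 63 were in the table and 54 could be tested over all cells. None passed an adjusted p of 0.05 in edgeR, against 0.611% of all genes. DESeq2 and limma-voom also called 0. In edgeR, 8 had an unadjusted p under 0.05. The share of all genes under that unadjusted p was not computed, so nothing is read from the 8. Of the 54, 29 were higher and 25 lower in Crep, with a median log2 difference of 0.03. Without Crep hashtag 4, 1 gene passed in edgeR, among 42 of 9794 genes in all. It was the microsomal glutathione transferase Mgst2, at -0.54 (SE 0.11, adjusted p = 0.0481), named after its values were seen. With all hashtags Mgst2 was at -0.785 (SE 0.30, adjusted p = 0.382 in edgeR). Crep hashtag 4 stood at 12.92 CPM, against 36.4 to 40.32 CPM in the other Crep hashtags.

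The oxidase partners all had positive estimates. Ncf4, which encodes p40phox, was at 91.17 ± 21.25 CPM in Cren and 119 ± 18.11 CPM in Crep (SD, n = 4 each), with a log2 difference of 0.38 (SE 0.17, adjusted p = 0.433 in edgeR). Rac2, the small GTPase of the oxidase in blood cells, was at 2240 ± 278.4 and 2534 ± 153.3 CPM, at 0.18 (SE 0.09). The catalytic chain Cybb had only 60 UMIs in 59 cells, too few to be tested. Cyba, with 23531 UMIs, was thus read far more often than its catalytic partner, and how well each RNA is captured was not measured.

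Among genes of peroxide and glutathione handling, Gpx4, which reduces lipid peroxides, stood at 263.3, 311.7, 285.9 and 285.5 CPM in Cren and at 333.3, 346.4, 316.4 and 344.7 CPM in Crep hashtags. All Crep hashtags were above all Cren hashtags, but the log2 difference of 0.23 (SE 0.08) did not pass in edgeR (adjusted p = 0.244). The mitochondrial peroxiredoxin Prdx3 lay the other way, at 97.8 ± 2.14 CPM in Cren and 85.66 ± 5.65 CPM in Crep (SD, n = 4 each), at -0.19 (SE 0.08, adjusted p = 0.391 in edgeR). Mgst3 was low, at 3.12 ± 1.77 and 6.88 ± 0.956 CPM, with a log2 difference of 1.12 (SE 0.34) on 126 UMIs.

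The relatives of the set gave mixed signs. The other glutaredoxins Glrx2 and Glrx5 were at 0.13 (SE 0.10) and -0.06 (SE 0.09), so neither showed a difference of the size of Glrx. Keap1, the sensor that holds NRF2 in check, was at 0.30 (SE 0.11), and Gclc, which starts glutathione synthesis, at -0.31 (SE 0.20). Arrdc4, an arrestin relative of Txnip, was at 14.29 ± 7.99 CPM in Cren and 5.94 ± 3.19 CPM in Crep (SD, n = 4 each), at -1.20 (SE 0.47), against 0.34 for Txnip. None of these passed the test in edgeR.

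**Figure D4:**
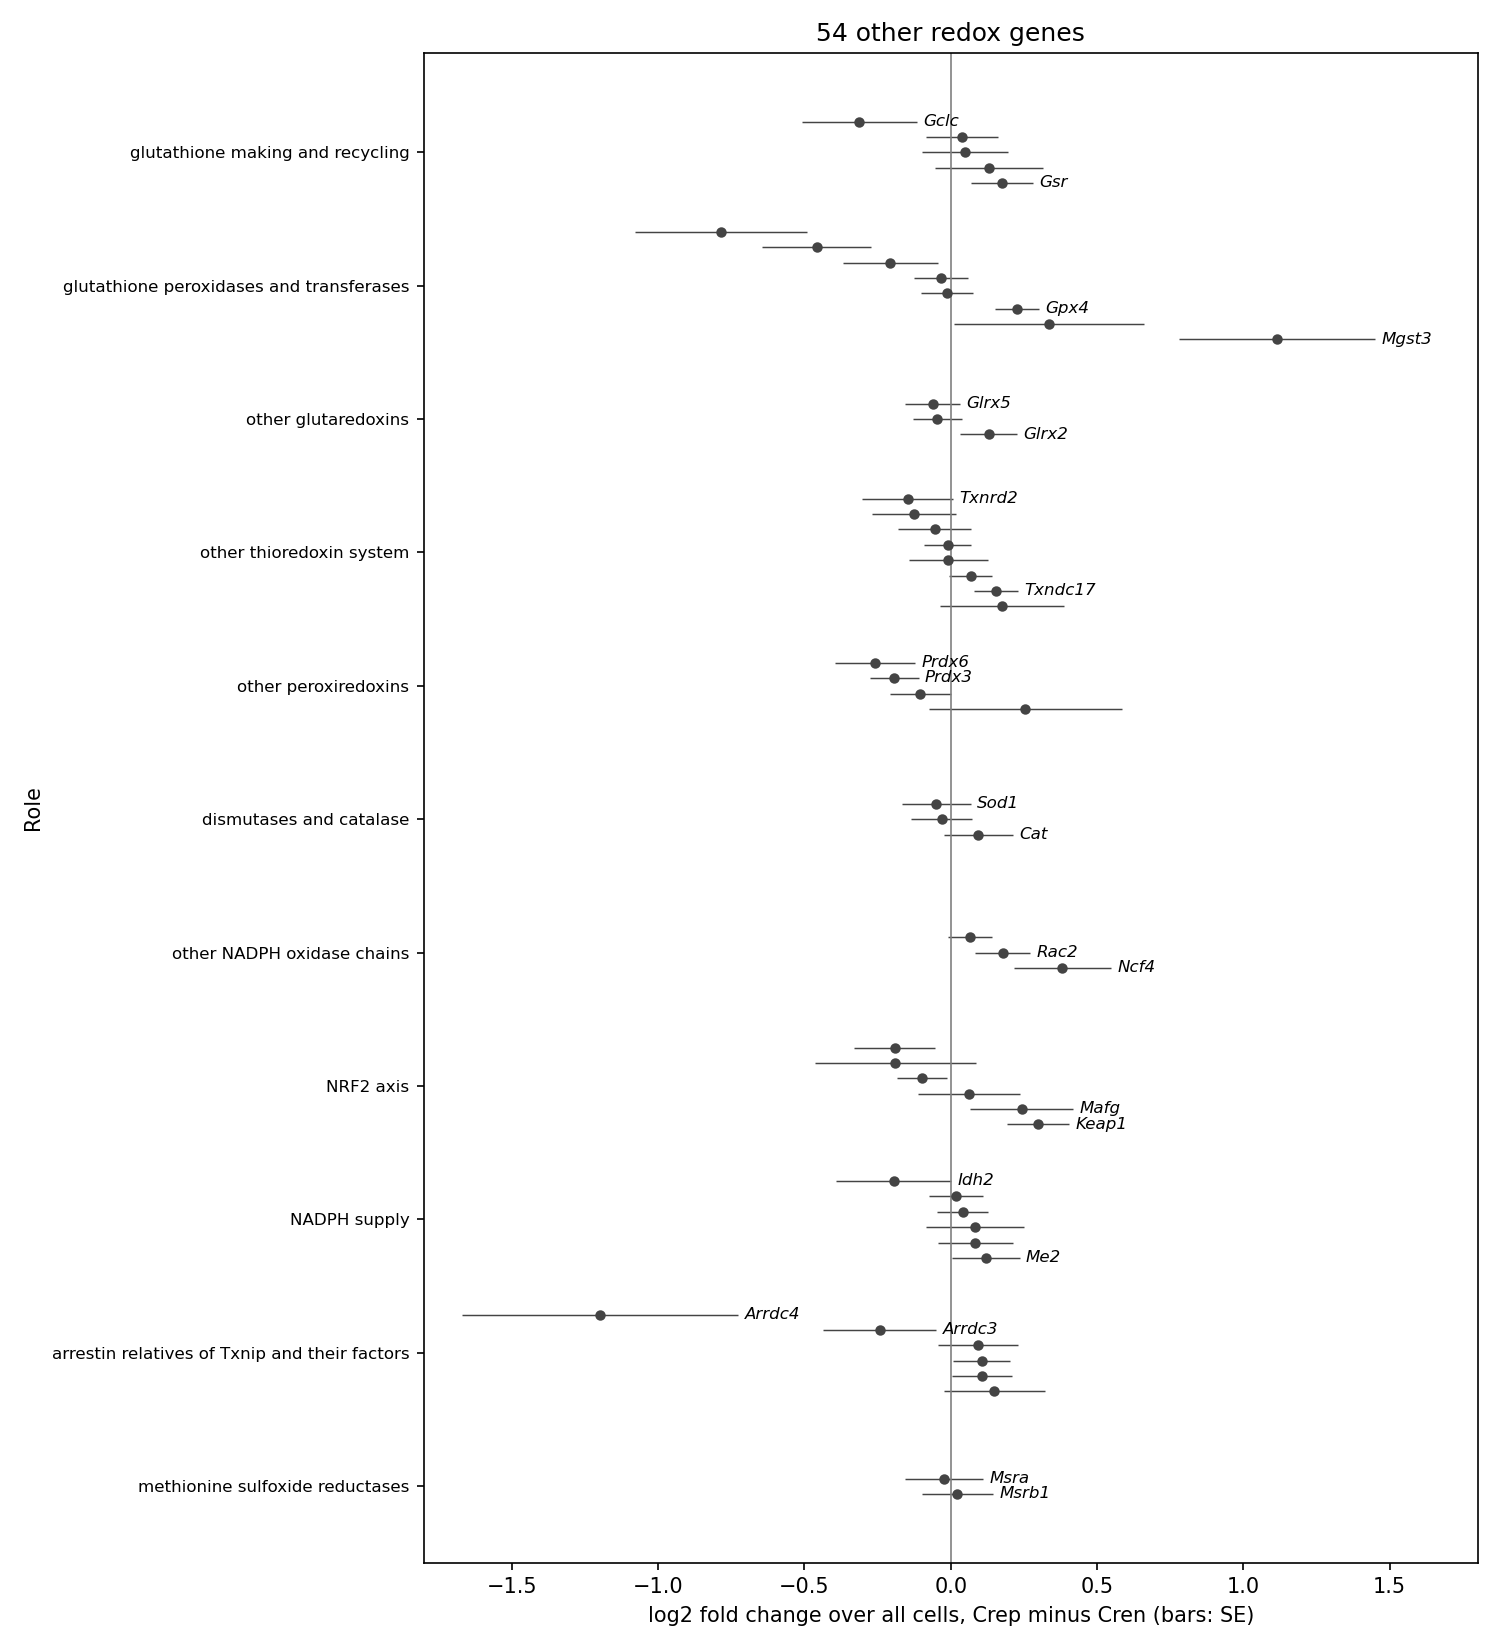
Log2 difference between Crep and Cren over all cells for 54 other redox genes, by role, with bars for 1 SE and names for the 2 genes of each role with the smallest p. The 3 oxidase partners lay above 0, 3 of 4 peroxiredoxins lay below it, and Mgst3 (1.12) and Arrdc4 (-1.20) were farthest from 0 on the 2 sides.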

How the data were processed

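The authors deposited raw UMI counts per gene and cell from a 10x 5' library with hashtags, plus an annotation with the hashtag, condition, fine cluster, total count and mitochondrial percent of each cell. The submitters' processing notes name the mm10 build, Seurat 4.3.0, Cell Ranger 7.0.0 and bcl2fastq 2.20.0.422. The deposited mitochondrial percent is the authors' own value and reaches at most 3%, and how doublets were treated is not given in the sources used here. No doublet caller was run.

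Counts were summed per hashtag, over all cells or within a fine cluster, and fitted with edgeR 4.0.16 (limma 3.58.1, R 4.3.3): TMM scaling, filterByExpr, robust quasi-likelihood, Benjamini-Hochberg adjustment over all genes tested, threshold 0.05. Levels over all cells are TMM-scaled CPM, and levels by cluster are CPM on the plain total. DESeq2 1.42.0 and limma-voom were alternatives. Fits were checked on simulated counts. Thinning, correlations and motif searches used Python 3.11.15 with numpy 2.4.6. Gene coordinates come from a GENCODE annotation of GRCm38. The members and lists were chosen with earlier results of these data known. Of the other redox genes, those past the threshold and, per role, the 2 with the smallest p are named; 2 more (Mgst2 and Cybb) were named after their values were seen. Likeness names the 4 genes with the highest r. Of the 8562 cells, 115 were not given the same hashtag by both classifiers and were kept.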

Additional observations from a re-analysis of the deposited data

Results flagged for a closer look

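In 58 groups of 4 hashtags, 3 values lay far from the other 3 of their group relative to the group's range, and chance marks about 1 in 20. Txn1 stood at 495.7 CPM in Cren hashtag 3, against 433.4 to 441.7 CPM in the other Cren hashtags. This is the hashtag that gave 97.32% of cluster 10, where Txn1 was at 727.5 CPM. Txn1 stood at 592.2 CPM in Crep hashtag 2, against 464.2 to 486 CPM in the other Crep hashtags. Txnip stood at 605.4 CPM in Crep hashtag 4, against 368.7 to 402.1 CPM. Cluster 7 held 36.62% and cluster 4 held 31.84% of that hashtag's cells. On the plain total, Txnip in that hashtag was at 604.5 CPM over all cells and at 599.1 CPM without cluster 7. The other Crep hashtags were at 352.6 to 394 CPM without cluster 7. Beyond these values, the part of the cell mixes in the levels was not tested.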

How the results depend on the processing

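The count of 2 members past the threshold was 1 without fine cluster 7 and 1 with the cluster mix held fixed, a setting that weights clusters 0, 1, 2, 3 and 6 equally, leaves out the other clusters and tests with limma, and ranged from 0 to 2 when 1 hashtag was left out. The count of other redox genes was 0, and ranged from 0 to 1 when 1 hashtag was left out. These counts were 2 and 0 with DESeq2, without the filter on low counts, with limma-voom, with cells given their hashtag by both classifiers, and without clusters 10 or 8, the last pair chosen after the data were seen. The log2 difference of Glrx ranged from 0.69 to 0.91, of Cyba from 0.35 to 0.64, of Ncf1 from 0.05 to 0.51 and of Txnip from 0.15 to 0.41 over 17 alternatives, all with the sign of the main value. Prdx1 kept its sign in 12 of 17 and was -0.11 with the cluster mix held fixed. The cause of these shifts was not tested. Over all genes, 59 calls became 143 with DESeq2, 37 with limma-voom, 26 without cluster 7, 20 with the mix held fixed and 14 to 121 when 1 hashtag was left out. Whether the hashtag numbers pair the samples was not settled. Same-number correlations were -0.0429, 0.144, 0.182 and 0.125, and those of the other pairs ran from -0.167 to 0.209. With the replicate block 2 members and 0 other redox genes passed, among 103 genes in all. Depth limits Ncf1 and Cybb most.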
